A study of Mus musculus with 5480 samples.

Results

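The 9 genes described here encode secreted factors that act on blood vessels and on cells near them: the vascular endothelial growth factors Vegfa, Vegfb, Vegfc and Vegfd, the angiopoietins Angpt1 and Angpt2, the chemokine Cxcl12, stem cell factor (Kitl) and hepatocyte growth factor (Hgf). They were chosen by name as a set of vascular growth factors, with earlier results of these data known. All 9 were found among the 18072 genes of a read count table of mesenchymal cells, the fibroblasts, smooth muscle cells and pericytes of the mouse distal lung. The study sorted 5480 such cells into wells, sequenced each cell separately and gave each cell 1 of 16 subtype names, which are used here as given. The cells came from 10 mice in 5 groups, each of 1 female and 1 male. The groups were embryonic day 18.5 (E18.5), postnatal day 1 (P1), P7 and P21, all labelled normal, and P7 labelled hyperoxia, which is breathing gas rich in oxygen. Mouse strain, genotype, oxygen level and length of exposure are not given in the sources used here, and each age and sex is represented by a single mouse. The design allows 3 steps of age to be compared (E18.5 to P1, P1 to P7, P7 to P21) and hyperoxia with normal air at P7.

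As background, vascular endothelial growth factor A drives the growth of capillaries through the receptor Kdr on endothelial cells, and Flt1 binds both it and factor B. Factors C and D act mainly on Flt4, the receptor best known from lymphatic vessels. Angiopoietin 1 activates the endothelial receptor Tek and steadies vessels, while angiopoietin 2 can oppose it or act weakly on the same receptor. Cxcl12 guides cells that carry Cxcr4 and is also bound by the scavenging receptor Ackr3. Kitl acts on Kit and Hgf on Met, receptors found on many cells outside the mesenchyme. In the lung, pericytes and vascular smooth muscle cells wrap vessels, adventitial fibroblasts lie in the outer sheath of larger vessels and airways, and alveolar fibroblasts lie in the gas-exchange walls beside the capillaries.

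Cells held from 39358 to 5177020 reads, with a median of 774305. Each mouse had a main sequencing run and up to 18 cells in others. The main run was the same for all 4 males in normal air and another for the E18.5 and P1 females, while the P7 female, the P21 female and each hyperoxic mouse had main runs of their own. Ages share a main run in both sexes for E18.5 and P1 and in males only for later steps, and hyperoxia and run cannot be told apart. For 11 of 12 subtype names checked, the mean level of the defining markers ranked 1 or 2 among 15 subtypes in the cells so named; the exception was airway smooth muscle, at rank 3. Summed over all cells of a mouse, 8 endothelial markers gave 4.35 to 39.6 CPM (reads of a gene scaled to the total reads of a library), 8 epithelial markers 26.6 to 94.3 and 7 immune markers 8.75 to 56.5, against 10344 to 34522 for 6 mesenchymal markers. Reads were not tagged by molecule, so counting intervals and limits from 0 reads cover counting error only.

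Vegfd was the most abundant of the 9 transcripts per length. Over all reads of the table it stood at 147 CPM per kilobase of exon, followed by Cxcl12 at 29.5, Angpt2 at 15.8, Angpt1 at 15.4, Vegfb at 14.2, Kitl at 13.3, Vegfa at 5.35, Hgf at 2.67 and Vegfc at 2.21. After each cell was thinned to 100000 reads, Vegfd was detected in 55.0% of cells (56.5% without thinning), Angpt1 in 36.7% (42.2%), Kitl in 35.1% (40.1%), Vegfa in 31.7% (41.2%), Cxcl12 in 30.9% (33.1%), Vegfb in 22.0% (27.2%), Angpt2 in 16.2% (18.1%), Hgf in 9.00% (11.9%) and Vegfc in 3.80% (4.76%). The median thinned cell held reads of 3 of the 9 genes in alveolar, adventitial and precursor fibroblasts. In early airway smooth muscle it held reads of 1, and 3.19% of cells held 3 or more. Such counts depend on how often each gene is detected alone. In thinned early alveolar fibroblasts Vegfd and Vegfa were found together in 38.7% of cells, against 35.5% if detected independently. For Cxcl12 and Angpt2 these shares were 3.65% and 2.00%, and the differences were not tested.

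Promoter sequence was available from RefSeq (GRCm38.p6) for 7 of the 9 genes, taken as the 250 bases before the start of the transcript. Vegfa, Vegfd and Cxcl12 are shown because Vegfa and Vegfd were highest in alveolar fibroblasts of an early or later name and Cxcl12 in adventitial ones, and because they differ in base composition. Capitals mark the GC box GGGCGG or its reverse complement CCGCCC, searched on both strands with overlapping matches counted; it occurred in 32.7% of 32851 promoters of this length. The Vegfa window (chr17:46032378-46032627, minus strand) was 59.2% G or C with 2 matches, the Vegfd window (chrX:164373272-164373521, plus strand) 42.4% with 0, and the Cxcl12 window (chr6:117168285-117168534, plus strand) 64.4% with 5. The hypoxia response core ACGTG or CACGT, found in 16.6% of all windows, had no match in any of these 3.
Vegfa: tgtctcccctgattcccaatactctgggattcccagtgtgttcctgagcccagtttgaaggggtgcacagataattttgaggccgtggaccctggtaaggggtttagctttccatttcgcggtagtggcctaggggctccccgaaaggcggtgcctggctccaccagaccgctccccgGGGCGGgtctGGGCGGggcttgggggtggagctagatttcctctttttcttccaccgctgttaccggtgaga
Vegfd: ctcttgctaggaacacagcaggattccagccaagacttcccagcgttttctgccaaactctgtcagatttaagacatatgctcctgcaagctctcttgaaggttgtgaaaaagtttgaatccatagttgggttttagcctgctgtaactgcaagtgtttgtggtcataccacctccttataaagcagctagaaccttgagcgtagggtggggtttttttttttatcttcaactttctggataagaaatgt
Cxcl12: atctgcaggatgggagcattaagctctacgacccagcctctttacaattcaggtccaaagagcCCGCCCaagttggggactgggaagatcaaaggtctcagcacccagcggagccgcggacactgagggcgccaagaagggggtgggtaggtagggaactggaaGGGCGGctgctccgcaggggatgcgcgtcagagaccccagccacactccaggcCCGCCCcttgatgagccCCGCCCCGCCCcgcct
Among the other genes with an entry, Vegfb had 4 GC boxes, Kitl 3, Vegfc 2 and Hgf 0 in either of 2 windows. A second Vegfa window (chr17:46025164-46025413, minus strand) lies downstream of the first and held 1 GC box and 1 hypoxia response core. These matches describe letters and show nothing about binding.

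Levels by subtype are CPM of the reads summed over all cells of that subtype in a mouse, for the 15 subtypes with at least 10 cells in a mouse (64 libraries of a mouse and a subtype). They are a description with no test, because the subtype names were made from the same counts. The names alveolar fibroblast, adventitial fibroblast and airway smooth muscle reach 10 cells in a mouse at P21 only, while names with 8 mice pool several ages. The orders given therefore mix age with subtype. Vegfd was highest in early alveolar fibroblasts, alveolar fibroblasts, male hyperoxic fibroblasts and fibroblast precursors. Early alveolar fibroblasts, seen in 8 mice, ranged from 277 to 947 CPM with a median of 765. The P21 alveolar fibroblasts of the female and male had 442 and 680 CPM, the fibroblast precursors at E18.5 505 and 592, and the 55 cells named male hyperoxic fibroblast, from 1 mouse, had 551 (95% exact Poisson interval 545 to 556). These 4 ranges overlapped from each neighbour to the next in the order, while the precursors did not overlap with early adventitial fibroblasts (140 to 390, median 368). Adventitial fibroblasts of P21 stood at 226 CPM in both mice, above vascular smooth muscle (0 to 94.0, median 54.9). A read of Vegfd was found in 85.4% of thinned early alveolar fibroblasts (85.8% unthinned, median depth 678486 reads) and in 4.46% of airway smooth muscle cells (5.31% unthinned, 734066 reads).

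Vegfa was highest in the 2 P21 libraries of alveolar fibroblasts, which had 57.0 and 61.5 CPM and did not overlap with the fibroblast precursors at 37.9 and 44.9. Early alveolar fibroblasts followed at 14.0 to 46.3 (median 32.7) and P21 adventitial fibroblasts at 25.2 and 35.6. Early adventitial fibroblasts lay far lower, at 3.08 to 13.1 (median 6.12). Pericytes held the least, 0.0498 to 6.61 with a median of 0.255.

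Vegfb and Vegfc had different patterns. Vegfb, better known from heart and muscle, was highest in the 16 striated muscle cells of 1 female, at 294 CPM (95% exact Poisson interval 281 to 307); these cells had no reads of the muscle progenitor genes Myf5 and Cdh15. Elsewhere Vegfb was broad, with subtype medians from 9.35 CPM in alveolar fibroblasts to 35.7 in proliferating myofibroblasts, and every neighbour in that order overlapped. Vegfc was low throughout and highest in adventitial fibroblasts. The 2 P21 adventitial libraries had 25.8 and 29.9 CPM and overlapped with no other subtype beside them in the order. With early and later forms joined, 1 cell held 48.3% (female) and 69.8% (male) of the Vegfc reads of P21 adventitial fibroblasts. P21 airway smooth muscle had 2.09 and 21.6, early adventitial fibroblasts 1.40 to 20.1 (median 11.7), and the medians of early alveolar fibroblasts and pericytes were 0.404 and 0.00818.

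Pericytes were among the highest subtypes for both angiopoietins, beside alveolar fibroblasts for Angpt1 and smooth muscle for Angpt2. Angpt1 was highest in P21 alveolar fibroblasts, with 168 and 232 CPM, and in pericytes, with 84.2 to 557 (median 196). The order of these 2 turned under 3 other ways of summing, with pericytes then first at medians of 192, 198 and 243 CPM. They cannot be ranked with ages pooled. At P21 both pericyte libraries lay above both libraries of alveolar fibroblasts. Myofibroblasts, early airway smooth muscle and their common precursor had the lowest Angpt1, with medians of 8.45, 1.92 and 1.71. Angpt2 was highest in contractile cells: P21 airway smooth muscle had 315 and 347 CPM, vascular smooth muscle 47.2 to 575 (median 244), pericytes 3.27 to 360 (median 152) and the myofibroblast and smooth muscle precursor 98.3 and 121. This order is by medians over pooled ages, and at P21 alone pericytes overlapped with airway smooth muscle. Early airway smooth muscle held only 0.0947 to 31.2 CPM of Angpt2 (median 7.01), and fibroblast precursors 0.393 and 1.24.

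Cxcl12 was highest in adventitial fibroblasts and vascular smooth muscle, cells that lie around larger vessels. P21 adventitial fibroblasts had 977 and 1271 CPM, vascular smooth muscle 164 to 2882 (median 985) and early adventitial fibroblasts 420 to 1154 (median 497). No other subtype passed 235 CPM, and early adventitial fibroblasts did not overlap with the next in the order, the myofibroblast and smooth muscle precursor. Pericytes, the other mural cell, had 0 to 10.7 CPM (median 2.88), with a read in 3.27% of thinned cells against 57.3% of vascular smooth muscle cells. Without thinning these shares were 5.69% and 60.7%, at median depths of 648751 and 688096 reads. When cells rather than reads were weighted equally, vascular smooth muscle came first, at a median of 1155 CPM.

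Kitl was highest in alveolar fibroblasts and fibroblast precursors. P21 alveolar fibroblasts had 107 and 268 CPM, fibroblast precursors 103 and 173, early alveolar fibroblasts 56.7 to 189 (median 120) and pericytes 19.2 to 256 (median 56.8). All neighbours in the order of Kitl overlapped. Vascular smooth muscle had 0 to 8.09 CPM. Hgf was highest in pericytes, 3.96 to 423 with a median of 58.7, and in P21 alveolar fibroblasts, 37.3 and 68.4, again overlapping. With cells weighted equally the alveolar fibroblasts came first at 70.0. At P21 alone pericytes had 120 and 423 CPM, above both alveolar libraries. The widest spreads rest on few cells: in the E18.5 female, 1 of 14 pericytes held all reads of Hgf, and in the E18.5 male 97.6% of the Hgf reads of early adventitial fibroblasts came from 1 of 29 cells.

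**Figure D1:**
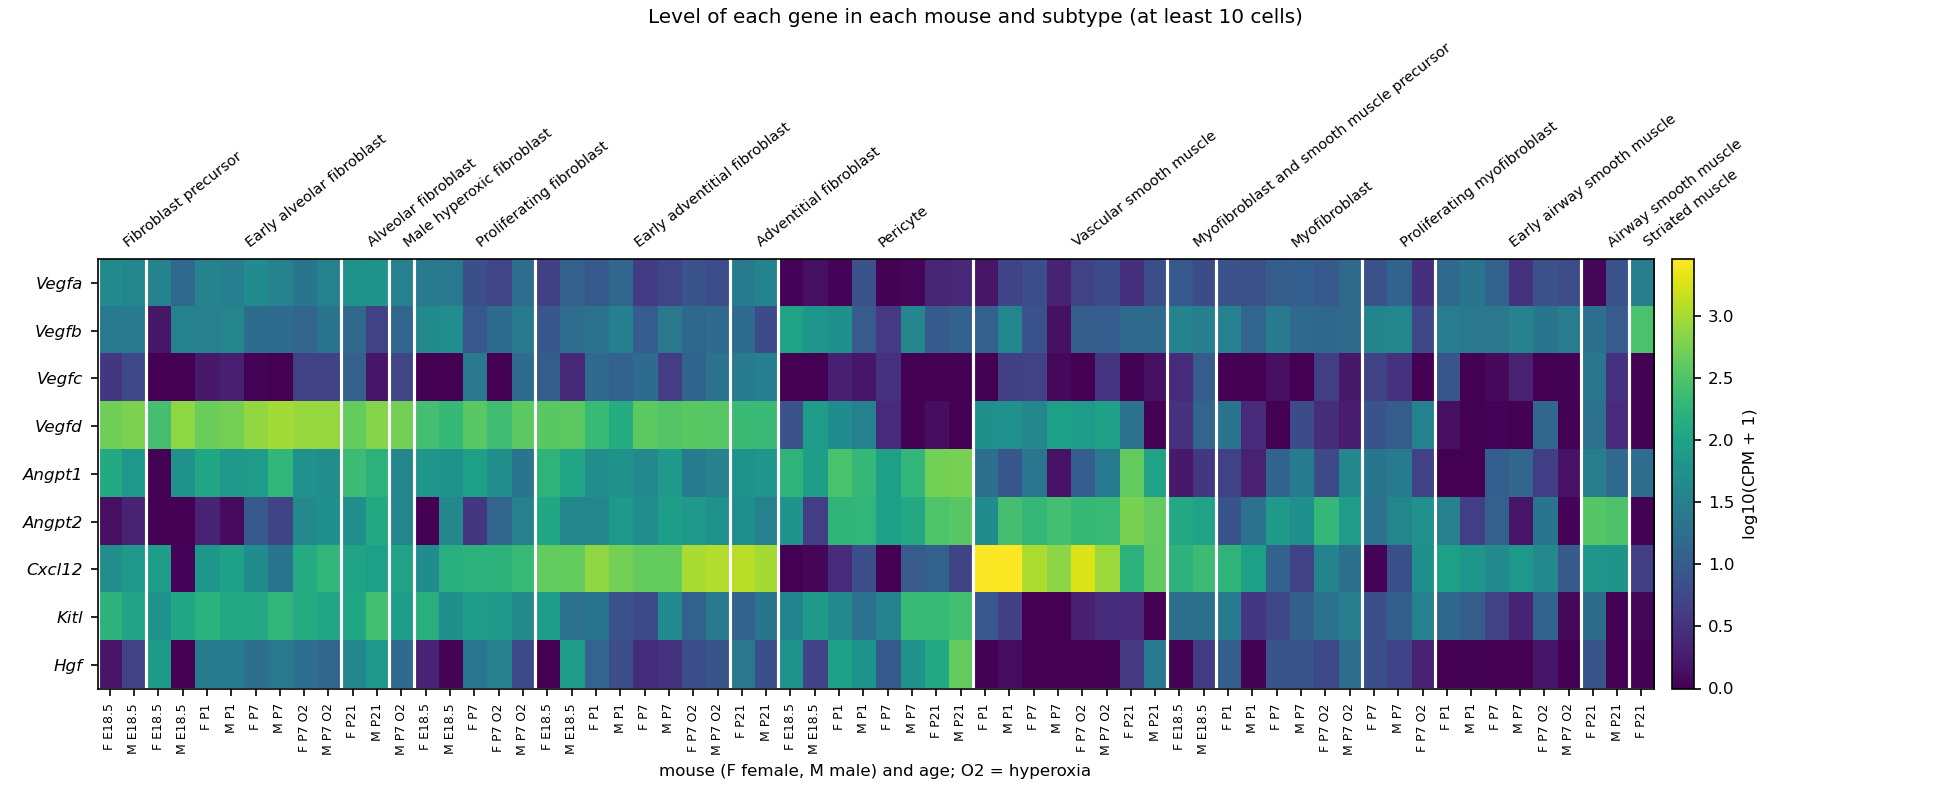
Heat map of the level of each of the 9 genes (rows) in each library of a mouse and a subtype with at least 10 cells (64 columns, grouped by subtype; F female, M male, O2 hyperoxia), as log10(CPM + 1) of summed reads. Vegfd is high in the fibroblast columns, from 140 to 947 CPM in early adventitial and early alveolar fibroblasts, Angpt2 in airway and vascular smooth muscle and pericytes, and Cxcl12 in adventitial fibroblasts and vascular smooth muscle.

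For comparisons of age and of hyperoxia, cells of the early and the later form of a subtype were put in 1 class, which gave 6 classes, and further sums held all cells of a mouse. Read counts were summed per mouse and tested two-sided by edgeR (quasi-likelihood, sex in the model) with Benjamini-Hochberg adjustment over all genes and a threshold of 0.05. In each pair of values by age or treatment the female comes first and the male second. Where groups of 2 mice are said not to overlap, the share of all genes without overlap was not counted. Each group held 2 mice, and all groups of a class were fitted together. The p-values therefore measure the spread left between all mice of a fit after the terms for sex and group. Of 207 tests of a member in 23 comparisons, 7 passed. The comparisons P1 to P7, P7 to P21 and hyperoxia against normal air share the same 2 mice at P7 in normal air, and all values from them are given side by side and not compared as independent.

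In alveolar fibroblasts both P21 mice had more Angpt2, Hgf and Cxcl12 than both P7 mice and less Vegfd, but no member passed in any step. Angpt2 had 0 reads in both E18.5 mice, then 1.18 and 0.268 CPM (P1), 7.98 and 4.13 (P7) and 52.4 and 126 (P21). The groups did not overlap from P1 to P7 or from P7 to P21. In the small library of the E18.5 female 0 reads allow up to 0.960 CPM, above the P1 male, so overlap at that step is open. From P7 to P21 the log2 change was 4.36 (SE 1.28, edgeR adjusted p = 0.561), and 2 of the 9 members, Angpt2 and Vegfc, had an unadjusted p under 0.05, as did 7.13% of all genes; DESeq2, run as an alternative, called both. In the same step 0.0702% of all genes were called. Endothelial markers in these libraries summed to 5.85 and 7.80 CPM at P7 and 14.3 and 34.1 at P21, with reads of 6 to 8 of the 8 markers; their part was not tested.

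Vegfd in alveolar fibroblasts was highest in the P7 mice. Its levels were 277 and 745 CPM (E18.5), 486 and 547 (P1), 785 and 947 (P7) and 443 and 667 (P21). The P7 mice overlapped neither with P1 nor with P21. The log2 change was 0.71 (SE 0.48) from P1 to P7, where 0% of genes were called (edgeR; unadjusted p under 0.05 for 1 member, Angpt2, and 2.36% of all genes), and -0.36 (SE 0.48) from P7 to P21; adjusted p = 1 and 0.944. Vegfa had 33.9 and 14.0 CPM (E18.5), 34.4 and 28.7 (P1), 46.3 and 33.7 (P7) and 57.3 and 60.3 (P21), each age above the one before within both sexes. The E18.5 values of this class rest on 14 and 24 cells. Fibroblast precursors at E18.5, which lie outside the class, had 37.9 to 44.9 CPM of Vegfa, above both P1 mice. Hgf had 17.7 and 23.6 at P7 and 37.3 and 67.2 at P21, and Cxcl12 46.6 and 21.3 against 96.9 and 86.9.

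From E18.5 to P1, 6.16% of all genes were called in the alveolar class, 956 up and 10 down, with a median log2 change of all genes of 1.35, and none of the 9 members was among them (1 had an unadjusted p under 0.05, as did 21.0% of all genes; DESeq2 called 0). This step rests on 14 and 24 cells at E18.5, since cells named fibroblast precursor lie outside the class. The library of the E18.5 female held 1093 CPM of the epithelial and 435 CPM of the immune markers and that of the male 25.9 and 9.36, and their part in the result was not tested. Leaving out either E18.5 mouse gave 2 calls: Cxcl12 and Hgf without the female, whose lone partner had 0.0737 CPM and 0 reads of them, and Angpt1 and Vegfb without the male, whose partner had 0 reads and 0.640 CPM.

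In adventitial fibroblasts Vegfa and Cxcl12 were higher in both P21 mice than in both P7 mice, but no member passed. Vegfa had 2.94 and 4.21 CPM at P7 and 24.1 and 35.6 at P21, a log2 change of 3.23 (SE 1.04, edgeR adjusted p = 0.378). Cxcl12 had 420 and 444 CPM (E18.5), 771 and 550 (P1), 759 and 440 (P7) and 1220.0 and 975 (P21); the last step had a log2 change of 1.06 (SE 0.32, adjusted p = 0.333). In neither case did P7 and P21 overlap. A single P7 female cell named adventitial fibroblast carries much of that mouse's value: the other 49 cells of the class had 434 CPM.

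Vegfd in adventitial fibroblasts was at 370 and 390 CPM (E18.5), 219 and 140 (P1), 395 and 345 (P7) and 216 and 226 (P21). P1 and P21 were low in both sexes and did not overlap with the ages beside them. None of the 9 members passed in the 3 steps of age, in which 0.17%, 0% and 0.124% of all genes did; 2, 1 and 2 members had an unadjusted p under 0.05, beside 9.23%, 5.60% and 10.2% of all genes, and DESeq2 called Vegfd, Vegfd and Vegfa.

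Pericytes of both P21 mice held more of each angiopoietin than those of both P7 mice, but no member passed. Angpt1 had 177 and 84.2 CPM (E18.5), 288 and 198 (P1), 91.2 and 195 (P7) and 531 and 557 (P21). Angpt2 had 61.7 and 3.27, then 180 and 190, then 88.7 and 123, and 325 and 360 at P21. The P21 mice were the highest for both genes with no overlap with any earlier mouse. The log2 changes from P7 to P21 were 1.97 (SE 0.65) and 1.73 (SE 0.97), with edgeR adjusted p = 0.918 and 0.955.

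Hgf in pericytes had 8.42 and 57.6 CPM at P7 and 120 and 423 at P21. A read was found in 20.0% and 46.7% of thinned cells at P7 and in 47.8% and 34.7% at P21, so that in the male the level was higher at P21 while the share of cells with a read was lower. In the P21 male 29.1% of these reads came from 1 cell. Kitl had 31.8 and 213 CPM at P7 and 221 and 256 at P21. None of the 9 members passed in the 3 steps in pericytes, in which 0.042%, 0% and 0.0504% of genes did (edgeR; 1, 0 and 2 members and 5.40%, 3.99% and 4.66% of all genes with an unadjusted p under 0.05; DESeq2 called 0, 1 and 0, the 1 being Vegfd). Endothelial markers summed to 32.4 and 62.8 CPM in the P21 pericyte libraries, against 0.199 to 37.0 at P7, and their part was not tested.

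Myofibroblasts, the contractile cells of the growing alveolar walls, had at least 10 cells per mouse in normal air at P1 and P7 only. Cxcl12 had 179 and 91.9 CPM at P1 and 11.1 and 3.72 at P7, a log2 change of -4.36 (SE 0.53, edgeR adjusted p = 0.216, unadjusted 9.7e-05). The groups were far apart, but 0% of all genes were called in this comparison. DESeq2 gave an adjusted p of 2.5e-14 and limma 0.225, and leaving out the female or the male of P1 gave 0.0031 and 5.3e-05. Angpt2 was higher at P7, with 6.97 and 19.1 CPM at P1 against 72.1 and 53.3 at P7 (log2 2.15, SE 0.73, adjusted p = 0.588). No member passed, and these 2 had an unadjusted p under 0.05, as did 8.01% of all genes. Epithelial markers summed to 55.5 and 80.7 CPM at P1 and 47.9 and 47.6 at P7; their part was not tested.

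Airway smooth muscle gave the only member that passed within a class. Angpt2 had 31.2 and 3.40 CPM at P1, 10.6 and 0.576 at P7, and 336 and 294 at P21. It rose from P7 to P21 by 8.07 on the log2 scale (SE 1.53, edgeR adjusted p = 0.0463), in a comparison with 1.13% of all genes called. The fold differs widely by sex, with a log2 change of 4.98 in the female and 8.99 in the male, whose P7 level rests on few reads. The call sits at the threshold and was lost without the female or male of P1 (adjusted p = 0.0626 and 0.0588), of P7 (0.130 and 0.220) or the P21 male (0.0986), without the term for sex (0.242) and with only the 4 mice compared (0.0855). Over all settings run the log2 change lay between 5.18 and 9.54. Epithelial markers summed to 102 and 54.9 CPM at P7 and 12.5 and 27.2 at P21, and immune markers to 11.0 and 8.16 against 12.2 and 24.6; their part was not tested.

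In airway smooth muscle Cxcl12 had 43.6 and 69.1 CPM at P7 and 59.6 and 57.0 at P21. Angpt1 had no reads in either P1 mouse and 9.87 and 12.8 CPM at P7; the step P1 to P7 called 0% of all genes and no member (edgeR; 1 member, Angpt1, with an unadjusted p under 0.05, also called by DESeq2, beside 5.25% of all genes).

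In vascular smooth muscle Cxcl12 was lower in both mice at each later age. It had 2749.7 and 2882 CPM (P1), 1097 and 722 (P7) and 164 and 409 (P21). Each age lay below the one before with no overlap, and the log2 changes were -1.59 (SE 0.57, edgeR adjusted p = 0.991) and -1.45 (SE 0.58, adjusted p = 0.682). Angpt1 had 17.5 and 7.39 CPM (P1), 21.7 and 0.482 (P7) and 420 and 96.0 (P21; log2 5.19, SE 1.49, adjusted p = 0.498; called by DESeq2 and with only the 4 mice compared). No member passed: 0% of genes were called from P1 to P7 and 0.0886% from P7 to P21, with 1 and 3 members at an unadjusted p under 0.05, beside 3.73% and 7.21% of all genes. Endothelial markers summed to 0 and 0.284 CPM at P1, 1.17 and 25.9 at P7 and 138 and 0.339 at P21; their part was not tested.

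**Figure D2:**
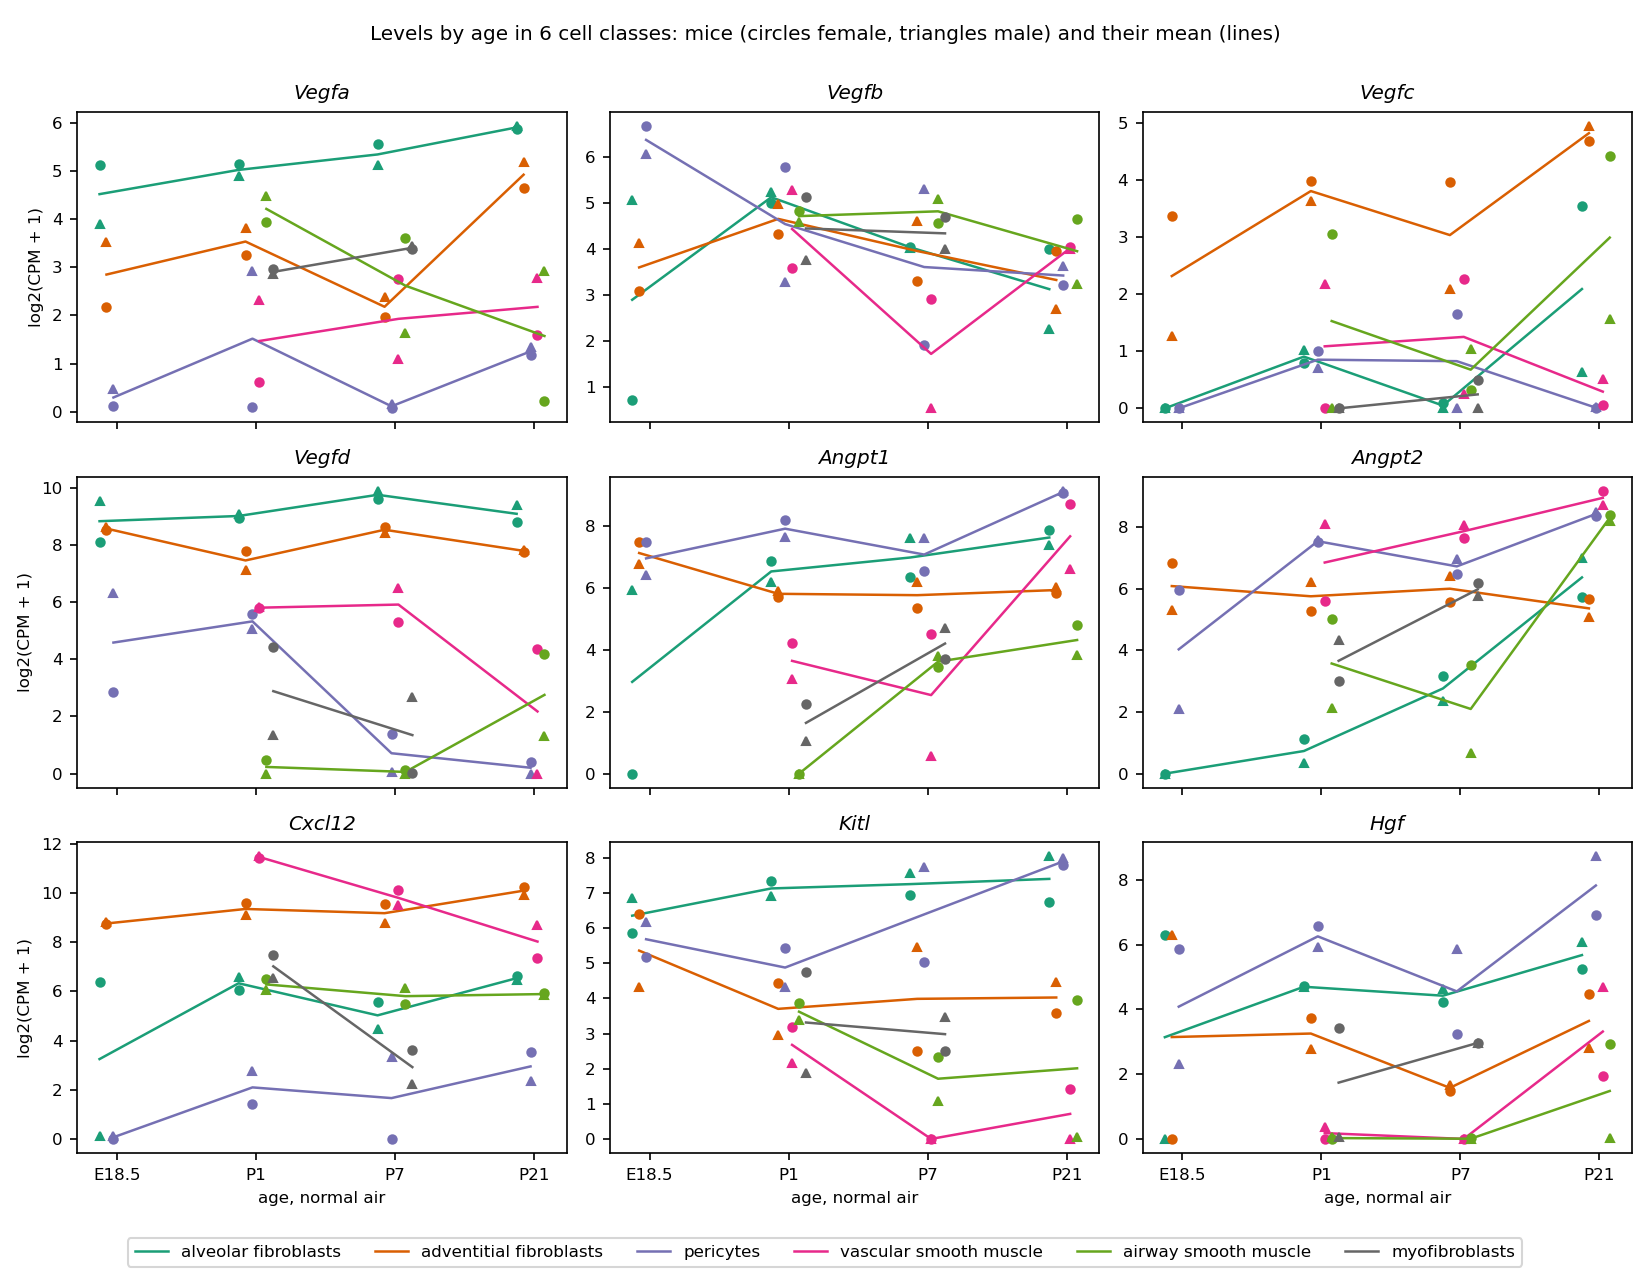
Level of each of the 9 genes (1 panel per gene; vertical axis, log2(CPM + 1) of summed reads, scaled per panel) by age in normal air in the 6 classes (colours). Circles are females, triangles males and lines join the means of both; Angpt2 of airway smooth muscle stands at 336 and 294 CPM at P21 against 10.6 and 0.576 at P7, and Cxcl12 of vascular smooth muscle is lower at each later age.

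Summed over all cells of a mouse, 5 of the 9 factors rose between P7 and P21. In such sums, fewer cells of a type and less RNA per cell cannot be told apart. Endothelial markers summed to 6.00 and 7.56 CPM at P7 and 22.5 and 22.0 at P21, with reads of all 8 in each mouse, and epithelial markers to 53.9 and 50.6 against 26.6 and 30.6; their part in the calls was not tested. Angpt1 had 43.5 and 76.4 CPM at P7 and 184 and 181 at P21 and rose by 1.82 on the log2 scale (SE 0.38, edgeR adjusted p = 0.0164). Angpt2 had 39.1 and 49.9 and then 142 and 190 (2.12, SE 0.27, adjusted p = 0.0016). Hgf had 9.63 and 11.8 and then 35.1 and 105 (2.81, SE 0.49, adjusted p = 0.0072).

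Cxcl12 had 142 and 94.9 CPM at P7 and 487 and 400 at P21 (log2 2.13, SE 0.31, adjusted p = 0.0031). Vegfc had 2.63 and 2.79 and then 14.9 and 11.0 (2.48, SE 0.67, adjusted p = 0.0443). Few cells carry these reads: 1 cell held 27.1% and 59.1% of them at P7 and 28.7% and 66.8% at P21. In this comparison 9.97% of all genes were called, 932 up and 791 down, with a median log2 change of all genes of 0.03, and the median of the 9 members was 1.82. With edgeR, 7 of the 9 members had an unadjusted p under 0.05, as did 26.2% of all genes. The groups of 8 of the 9 members did not overlap, the 5 called ones and others that did not pass. The share of all genes without overlap was not counted, so this number cannot be judged against it. Leaving out the P7 female ended the call of Angpt1 (adjusted p = 0.118), leaving out the P7 male those of Hgf (0.109) and Cxcl12 (0.0622), and leaving out any mouse but the P21 male that of Vegfc (0.0544 to 0.234). With only the 4 mice compared Vegfc had an adjusted p of 0.0767. Angpt2 was called in all settings run for it, with adjusted p from 1.0e-09 to 0.0281.

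The other 4 members did not pass from P7 to P21 with edgeR and all mice. Vegfa had 20.7 and 13.2 CPM at P7 and 28.8 and 26.8 at P21 (adjusted p = 0.150), and Kitl 47.1 and 62.9 against 67.6 and 115 (0.130; 0.0364 without the P21 female, the 1 setting that called it, and 0.546 without the P21 male). Vegfd had 314 and 270 against 231 and 217 (0.721).

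The mixture of cells also differed between P7 and P21. Adventitial fibroblasts made up 8.25% and 9.82% of cells at P7 and gave 48.2% and 47.8% of Cxcl12 reads, and 1 cell gave 21.9% of all Cxcl12 reads of the female. At P21 they made up 30.7% and 27.7% of cells in the female and male and gave 89.8% and 85.8%. When the 5 classes present at both ages were given equal weight, the log2 change of Cxcl12 from P7 to P21 was -0.33 in the female and 0.28 in the male, against 2.13 over all cells. These are means of CPM, in which the class with the highest level counts most. That class was vascular smooth muscle at P7, where Cxcl12 was lower in both P21 mice. In alveolar and adventitial fibroblasts it was higher in both P21 mice, and the part of the mixture was not tested. For Angpt1 the equal-weight values were 2.38 and 0.92, for Angpt2 1.91 and 1.36, for Hgf 2.75 and 2.64, and for Vegfc 1.41 and 2.86, all of the same sign as over all cells. Pericytes gave 39.3% of the Hgf reads of the P21 female and 83.2% of those of the P21 male, where they made up 24.1% of cells. Alveolar, precursor, proliferating and male hyperoxic fibroblasts together gave 42.8% and 18.8% of Angpt1 at P21, after 69.2% and 61.5% at P7.

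At the earlier steps of age over all cells, Hgf was the member that passed. It had 2.44 and 6.57 CPM at E18.5 and rose to 21.0 and 19.7 at P1 (log2 2.42, SE 0.48, edgeR adjusted p = 0.0449), with 1.23% of all genes called. The call was lost when any of 8 mice was left out (the females and males of E18.5, P1, P7 and hyperoxia; adjusted p = 0.0663 to 0.379), with limma (0.0915), without the term for sex (0.0779) and with only the 4 mice compared (0.0707). With 3 classes at equal weight the log2 change of Hgf was -0.02 in the female and 0.15 in the male. These values rest on few E18.5 cells. In the female, 1 of 14 cells held all Hgf reads of the alveolar class, and 1 of 14 those of pericytes. In the male 97.6% of the adventitial reads came from 1 of 29 cells. Fibroblast precursors, 67.8% and 57.9% of cells at E18.5, lie outside the 3 classes. Epithelial markers summed to 60.1 and 45.5 CPM at E18.5 and 88.1 and 94.3 at P1, immune markers to 11.5 and 8.75 against 17.3 and 29.4, and endothelial markers to 14.3 and 13.2 against 9.85 and 4.35; their part was not tested. From P1 to P7, where 0.22% of genes were called, no member passed with edgeR and 4 had an unadjusted p under 0.05, as did 11.1% of all genes. Among these, Angpt2 had 19.4 and 22.8 CPM at P1 and 39.1 and 49.9 at P7 (adjusted p = 0.170), and Cxcl12 311 and 201 against 142 and 94.9 (0.158); DESeq2 called both.

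**Figure D3:**
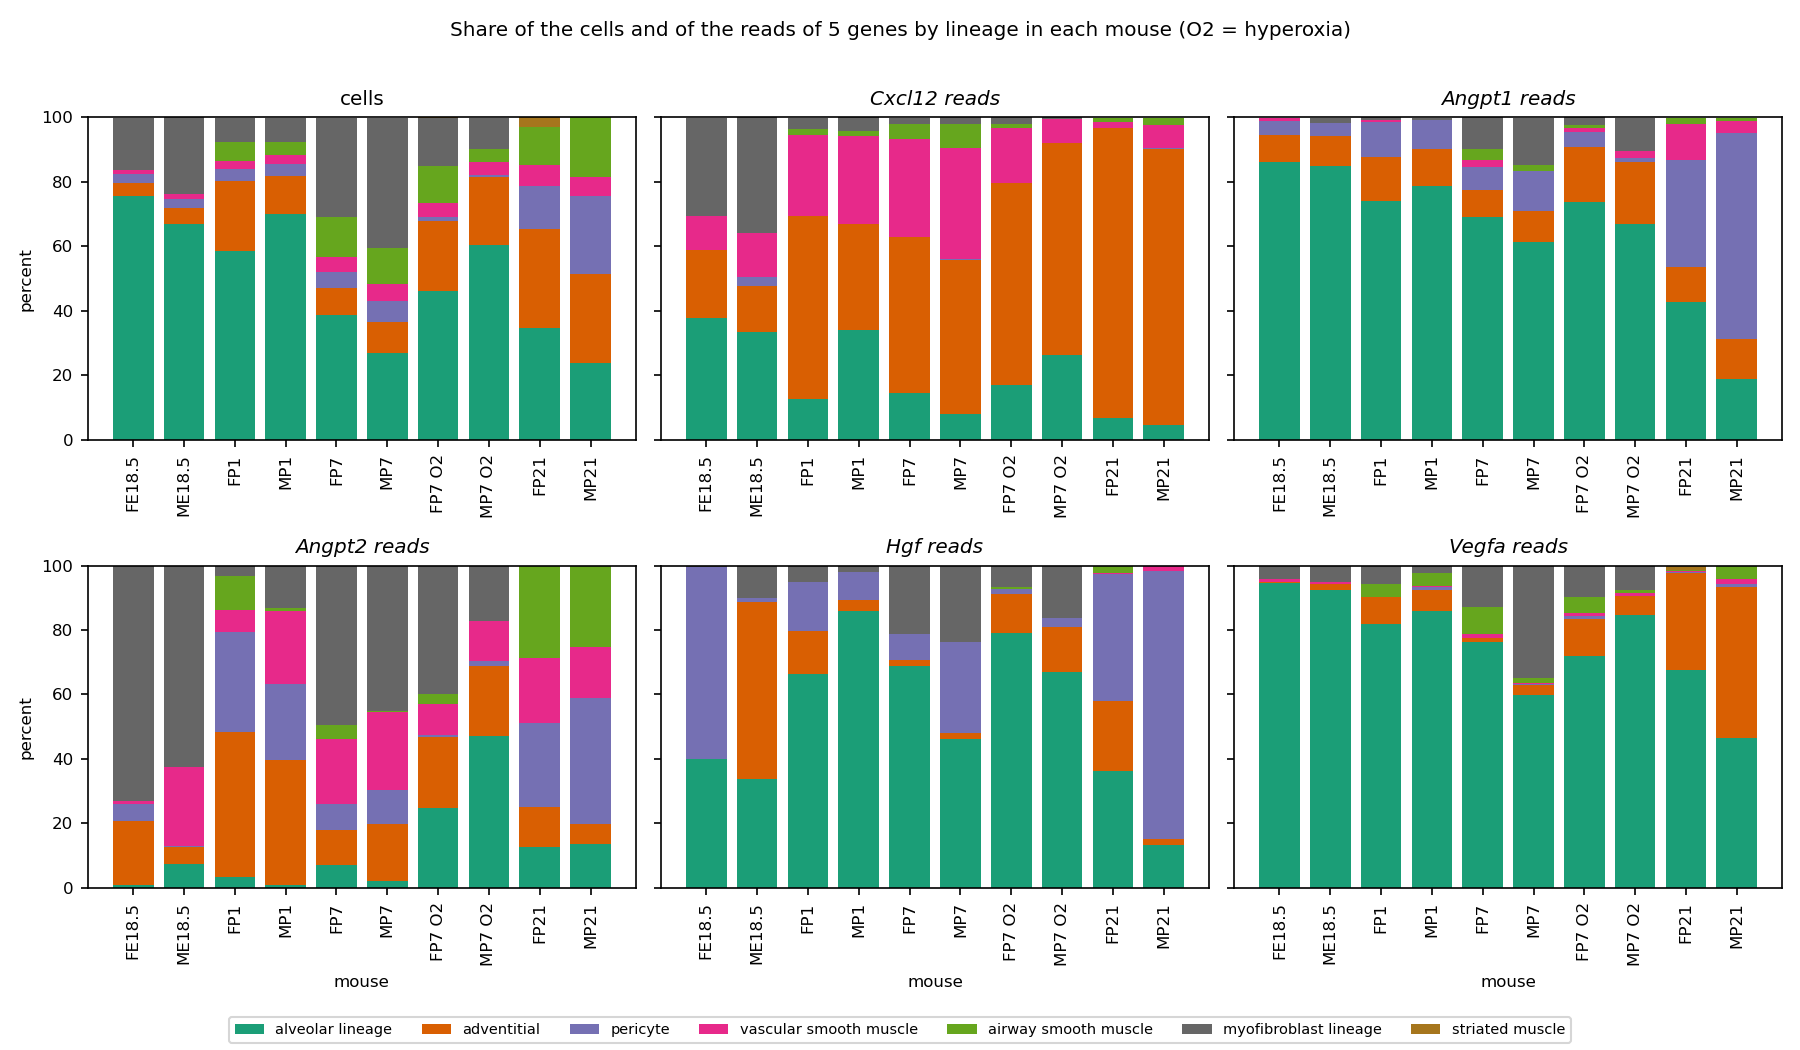
Share (percent, stacked bars, 1 bar per mouse) of cells and of the reads of Cxcl12, Angpt1, Angpt2, Hgf and Vegfa that belong to each group of subtypes (colours); F is female, M male and O2 hyperoxia, and the group named alveolar lineage holds alveolar, precursor, proliferating and male hyperoxic fibroblasts. Adventitial fibroblasts give 89.8% and 85.8% of Cxcl12 reads at P21, and pericytes 83.2% of Hgf reads in the P21 male.

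Alveolar fibroblasts of both hyperoxic mice held more Cxcl12, Angpt2 and Vegfc than those of both mice in normal air, while Vegfd overlapped, and no member passed. The 55 cells named male hyperoxic fibroblast lie outside this class. They had 98.8 CPM of Cxcl12, 36.5 of Angpt2, 4.31 of Vegfc and 551 of Vegfd, the last below both mice in air. Cxcl12 had 46.6 and 21.3 CPM in normal air and 131 and 188 in hyperoxia. A read was found in 11.4% and 8.70% of thinned cells in air and in 42.1% and 53.5% in hyperoxia. Over all cells of a mouse, the median number of genes detected per cell was 2988 and 2963 in air and 4268 and 5545 in hyperoxia, and its part in these shares was not tested. The log2 change was 2.29 (SE 1.77, edgeR adjusted p = 1); in the added fit without both E18.5 mice, whose libraries are small, it was 2.10 (SE 0.47, adjusted p = 0.766).

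Angpt2 in alveolar fibroblasts had 7.98 and 4.13 CPM in air and 40.9 and 53.0 in hyperoxia (log2 2.88, SE 1.18, adjusted p = 1). Vegfc had 0.0705 CPM and no reads in air and 3.66 and 3.86 in hyperoxia, with a read in 5 of 212 and 13 of 242 hyperoxic cells. Angpt1 had 80.8 and 192 against 54.4 and 49.7, and Vegfa 46.3 and 33.7 against 21.3 and 31.6, without overlap. Vegfd had 785 and 947 CPM in air and 844 and 820 in hyperoxia. edgeR called 0% of all genes in this class, 2 members (Vegfc and Angpt2) had an unadjusted p under 0.05, as did 2.68% of all genes, and DESeq2 called Vegfc. Endothelial markers summed to 5.85 and 7.80 CPM in air and 10.2 and 10.4 in hyperoxia; their part was not tested.

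Adventitial fibroblasts had 759 and 440 CPM of Cxcl12 in air and 1035 and 1154 in hyperoxia (log2 0.73, SE 0.32, edgeR adjusted p = 0.621). A single cell carries much of the value of the air female, whose plates 1 and 2 had 398 and 1088 CPM. Angpt1 was lower in both hyperoxic mice, at 26.0 and 33.1 CPM against 39.5 and 71.4 (log2 -1.07, SE 0.47, adjusted p = 0.621). Plates 1 and 2 of the air female had 82.1 and 0.694 CPM of Angpt1, so her value differs widely by plate. Cxcl12 and Angpt1 had an unadjusted p under 0.05, as did 8.01% of all genes, and 0% were called. Endothelial markers summed to 47.6 and 114 CPM in the hyperoxic adventitial libraries against 2.70 and 5.72 in air; their part was not tested. Vegfd had 379 and 366 CPM in hyperoxia against 395 and 345 in air, which overlap.

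Myofibroblasts had 11.1 and 3.72 CPM of Cxcl12 in air and 35.4 and 18.1 in hyperoxia (log2 1.92, SE 0.47, edgeR adjusted p = 0.551). Their Angpt2 was 72.1 and 53.3 against 199 and 81.8. Immune markers in these libraries summed to 71.7 and 38.8 CPM in air and 134 and 93.5 in hyperoxia, and epithelial markers to 47.9 and 47.6 against 15.6 and 27.7; their part was not tested. Airway smooth muscle had 43.6 and 69.1 CPM of Cxcl12 in air and 41.6 and 8.61 in hyperoxia, lower in both mice. Vascular smooth muscle had 1097 and 722 against 1873 and 872, which overlap. No reads of Hgf were found in vascular smooth muscle of any of the 4 mice. No member and 0% of all genes were called in these 3 classes; 1, 0 and 0 members had an unadjusted p under 0.05, beside 6.33%, 3.10% and 2.57% of all genes, and DESeq2 called Cxcl12 in myofibroblasts. Pericytes are not compared here because fewer than 10 were present in each hyperoxic mouse.

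Over all cells, Cxcl12 had 142 and 94.9 CPM in air and 361 and 388 in hyperoxia, a log2 change of 1.64 (SE 0.31, edgeR adjusted p = 0.0747) that missed the threshold. It passed with DESeq2 (1.7e-04), with limma (0.0462) and without the female or male of P21 (0.0380 and 0.0393). Adventitial fibroblasts made up 21.6% and 21.1% of hyperoxic cells, and with equal class weights the log2 change of Cxcl12 was 0.67 and 0.84. Vegfd was 314 and 270 CPM in air and 452 and 501 in hyperoxia (log2 0.67, SE 0.24, adjusted p = 0.313), with an equal-weight change of 0.11 and -0.12. Endothelial markers summed to 6.00 and 7.56 CPM in air and 19.2 and 39.6 in hyperoxia; their part was not tested. In this comparison 0.243% of all genes were called and no member was, with 2 members at an unadjusted p under 0.05, beside 12.3% of all genes.

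**Figure D4:**
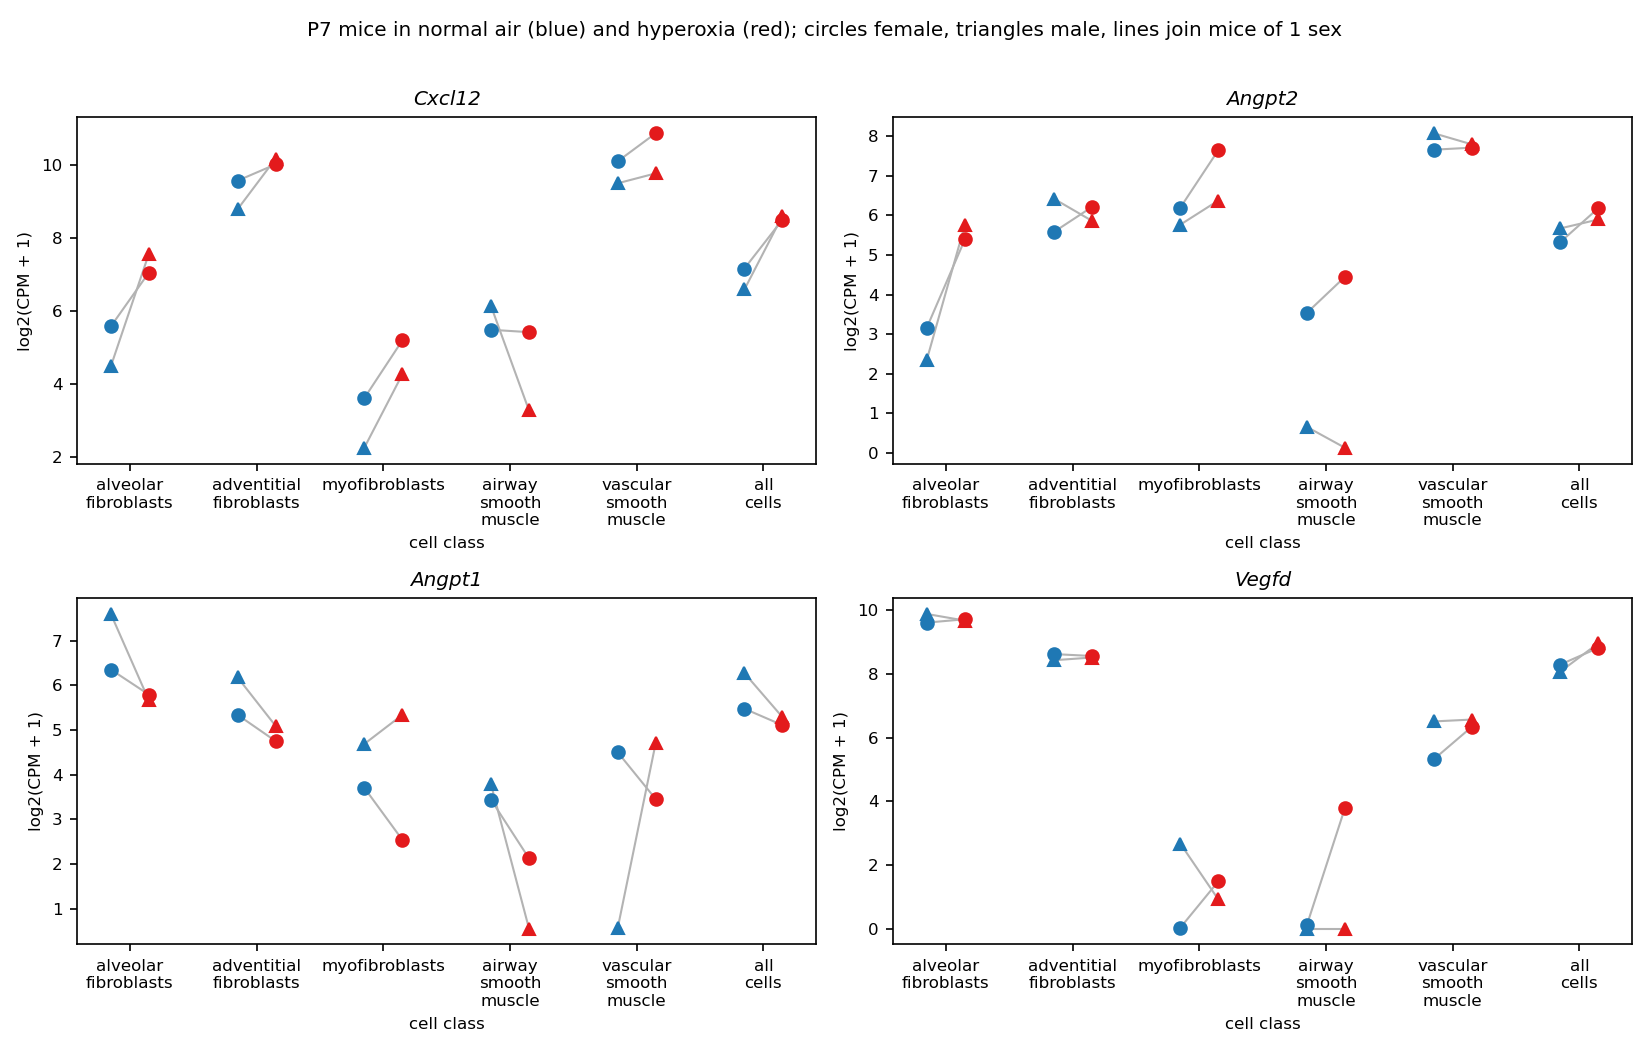
Level of Cxcl12, Angpt2, Angpt1 and Vegfd (1 panel each; vertical axis, log2(CPM + 1) of summed reads, scaled per panel) at P7 in normal air (blue) and in hyperoxia (red) in 5 classes and all cells; circles are females, triangles males, and lines join mice of 1 sex. Cxcl12 of alveolar fibroblasts is at 131 and 188 CPM in hyperoxia and at 46.6 and 21.3 in air, while Vegfd of the same cells overlaps.

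Whether a change differed among classes was tested within mice, with the mouse as a block. No member passed in the 4 tests, in which 0% (E18.5 to P1), 0.172% (P1 to P7), 0.199% (P7 to P21) and 0.106% (hyperoxia) of all genes did. The lowest p-values were those of Kitl from P1 to P7 (unadjusted p = 0.0012 and edgeR adjusted p = 0.209), of Angpt1 in the same step (0.0014 and 0.220), of Angpt2 from P7 to P21 (0.0022 and 0.226) and of Cxcl12 in hyperoxia (0.0053 and 0.360). Class by class differences in the steps above are therefore given as values. Kitl in alveolar fibroblasts had 161 CPM at P1 and 121 at P7 in the female, and 120 and 189 in the male. In pericytes it had 41.8 and 31.8 in the female and 19.2 and 213 in the male, so the later value was the lower one in the female and the higher one in the male.

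Receptors of these factors are described by level and ranked by median, with no test. Of 11 on the list, Kdr, Flt4 and Tie1 had no subtype median above 1.06 CPM. Tek and Ackr3 were highest in P21 adventitial fibroblasts, with 67.7 and 71.6 CPM of Tek and 205 and 317 of Ackr3. By median Kit was highest in P21 airway smooth muscle (43.9 and 46.6), within the range of vascular smooth muscle (8.07 to 73.3, median 42.7). Met was highest in the myofibroblast and smooth muscle precursor (47.8 and 115), Flt1 in vascular smooth muscle (median 13.3) and Cxcr4 in pericytes (median 10.0). Nrp1, a co-receptor of the vascular endothelial growth factors, was highest in early adventitial fibroblasts at a median of 439.

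Pathway genes were taken from 3 lists, 11 receptors, 12 other vascular ligands and antagonists and 10 genes that respond to low oxygen. Over all cells from P7 to P21, where 9.97% of all genes were called, 2 of 11 receptors passed, both up: Tek (log2 2.91, SE 0.57, edgeR adjusted p = 0.0130) and Nrp1 (1.12, SE 0.25, 0.0209). Of the 12 other ligands 2 passed up and 2 down. Adm, a vasodilating peptide, rose by 2.51 (SE 0.25, 5.2e-04), while the growth factor midkine (Mdk) had a log2 change of -3.10 (SE 0.36, 8.4e-04) and Vash2 of -4.44 (SE 0.49, 7.2e-04). Of the 10 genes that respond to low oxygen, 2 passed up, Slc2a1 (1.90, SE 0.41, 0.0188) and the collagen hydroxylase subunit P4ha1 (1.12, SE 0.23, 0.0163). The 2 that passed down were Egln3 (-2.89, SE 0.50, 0.0069), which hydroxylates hypoxia-inducible factor, and Ankrd37 (-3.27, SE 0.84, 0.0364). The median of the 10 was -0.45, beside 0.03 for all genes.

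From E18.5 to P1 over all cells, where 1.23% of all genes were called, 1 receptor passed up, 2 other ligands up and 1 low-oxygen gene down. Ackr3 rose from 2.12 ± 0.25 CPM to 30.8 ± 6.15 (mean ± SD, n = 2 mice; log2 3.92, edgeR adjusted p = 9.3e-04) and Angptl4, an inhibitor of lipoprotein lipase, from 59.4 ± 1.88 to 246 ± 44.0 (2.11, 0.0035). Bnip3, a target of hypoxia-inducible factor, fell from 192 ± 18.6 to 57.0 ± 1.47 (-1.68, 0.0299). In airway smooth muscle from P7 to P21, 1.13% of all genes were called. There 1 other ligand passed up, Thbs1 (log2 2.02, edgeR adjusted p = 0.0194), and 2 down, Mdk (-2.57, 0.0133) and Angptl4 (-2.78, 0.0397). In alveolar fibroblasts from E18.5 to P1, the glucose transporter Slc2a1 passed, as did 6.16% of all genes. It had no reads at E18.5 and 16.1 ± 3.13 CPM at P1. In the other 19 comparisons, hyperoxia included, no gene of the 3 lists passed. At most 0.243% of all genes were called in them, and 0% in each hyperoxia comparison within a class.

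Over the 64 libraries of a mouse and a subtype, which share mice and depth, the genes most like each member by Pearson correlation of log2(CPM + 1) are given as a description. Vegfd was closest to the adhesion molecules Vcam1 (r = 0.89) and Alcam (0.87), with 6030408B16Rik between them. Cxcl12 was closest to the transcription factor Osr1 (0.82), then Art4 and Olfr1033 (0.81 and 0.75). Vegfc was closest to Adh7, Lum and C3 (0.75, 0.71 and 0.70), Kitl to Cacna1d, Tril and Svep1 (0.78, 0.74 and 0.73) and Vegfa to Cp, Fam213a and Neo1 (0.72, 0.70 and 0.69). The gene for the secreted signal Wnt4 led for both Angpt1 and Hgf (0.67 each), followed by 1190002N15Rik and Hsd11b1 (0.66 each) for Angpt1 and Lgals3bp and Dock10 (0.66 and 0.60) for Hgf. Angpt2 was closest to C1qtnf1, Fry and Rhoj (0.70, 0.68 and 0.68) and Vegfb to Atf2, Mdh1 and Ciao2a (0.65, 0.60 and 0.56).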

How the data were processed

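Raw read counts per gene and cell were deposited by the authors, without molecular tags; the submitters' processing notes name STAR 2.5.2b, HTSeq 0.10 and the genome build GRCh38, a human build although the cells are from mouse, so no coordinates of the deposited data are given. Every count column matched 1 labelled cell, and subtypes, mice and runs come from the labels; 69 cells of a CD31 and 2 of a CD45 sort, by their titles, were kept. Counts were summed per mouse and class (at least 10 cells) and fitted by the quasi-likelihood method of edgeR 4.0.16 (R 4.3.3), with TMM scaling, filterByExpr and terms for sex and group; class differences were tested with the mouse as a block. Each fit had 6 to 10 libraries, leaving 2 to 4 residual degrees of freedom. DESeq2 1.42.0 and limma 3.58.1 (log2(CPM + 1) of mean CPM per cell) served as alternatives, and the fits were tested on simulated data. Kilobases are exon unions of GENCODE M21. A level of 0 allows up to 3 reads. To compare detection, cells were thinned to 100000 reads, leaving out 168 shallower cells. Whether doublets were removed is not given in the sources used here, and none were called.

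The members and lists were chosen with earlier results of these data known. Genes named besides the members are the 3 most correlated with each (mean of at least 10 CPM) and, of the pathway lists, at most the 4 with the largest change among those past the threshold of a comparison; receptors are also described by their levels. Alternatives were other scaling, no filter on low counts, no term for sex, only the 4 mice compared, each mouse left out, the CD31 and CD45 sorts left out, and other weights of cells; the fit without both E18.5 mice was added after seeing the data.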

Additional observations from a re-analysis of the deposited data

How the results depend on the processing

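None of the 7 changes of members that passed turned direction under the other fits or with a mouse left out. With classes at equal weight, 2 of the 7 turned in the female, Cxcl12 from P7 to P21 over all cells (log2 -0.33) and Hgf from E18.5 to P1 (-0.02). The Cxcl12 value joins a lower level in vascular smooth muscle at P21 with higher levels in alveolar and adventitial fibroblasts. For Hgf, 1 cell held all reads of the E18.5 female's alveolar class, and 1 those of her pericytes. Counts of members called depend on the tool. DESeq2 called 24 members over the 23 comparisons against 7 with edgeR, and 0.934% to 26.2% of all genes. It called 2 members in alveolar fibroblasts from P7 to P21, 1 there in hyperoxia, 1 in adventitial fibroblasts at each step of age, 1 in pericytes from P1 to P7, 2 in myofibroblasts from P1 to P7 and 1 there in hyperoxia, 1 in airway smooth muscle from P1 to P7 and 2 from P7 to P21, 1 in vascular smooth muscle from P7 to P21, and over all cells 2 from E18.5 to P1, 2 from P1 to P7 and 1 in hyperoxia. With no filter on low counts, 1 member was called in myofibroblasts from P1 to P7. Without the term for sex, 0 were called in airway smooth muscle from P7 to P21 and 0 over all cells from E18.5 to P1. With only the 4 mice compared, 0 were called in both of these, 1 in vascular smooth muscle from P7 to P21 and 1 over all cells from P1 to P7. With limma, 0 were called over all cells from E18.5 to P1 and 1 in hyperoxia. The class difference from P1 to P7 gave 1 call without vascular smooth muscle. Leaving out 1 mouse at a time gave 0 to 2 calls in alveolar fibroblasts from E18.5 to P1, 0 to 2 in myofibroblasts from P1 to P7, 0 to 1 there in hyperoxia, 0 to 1 in airway smooth muscle from P7 to P21, and over all cells 0 to 1 from E18.5 to P1, 2 to 5 from P7 to P21 and 0 to 1 in hyperoxia. The causes were not tested. With another scaling the median log2 change of all genes in alveolar fibroblasts from E18.5 to P1 was 1.14 in place of 1.35. No paired analysis was possible because each group holds 1 mouse of each sex with no shared litter or day in the labels; sex is a term of the model. The alveolar libraries of E18.5 hold 14 and 24 cells and each group 2 mice.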
